A study of Canis lupus familiaris with 5 samples.

Results

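Of the 20257 features counted in dog bone marrow, 3 rows were followed through B cell development: VPREB1 (ENSCAFG00000024382), VPREB3 (ENSCAFG00000014130) and ENSCAFG00000014139. The rows were chosen on measured values of these same cells, because their levels differed between early and late B lineage selections. Levels across those selections are therefore given as a description with no test. The files give the third row no symbol, so it is called by its identifier here and no role is given to it. VPREB1 and VPREB3 carry the names of surrogate light chain genes.

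The surrogate light chain stands in for a conventional light chain while a B cell precursor tests its newly rearranged heavy chain. In human and mouse, VPREB1 encodes the VpreB part of this chain, which pairs with a lambda5-type partner and with the mu heavy chain, encoded by IGHM, to form the pre-B cell receptor. Signals from that receptor let large precursors divide, after which the surrogate light chain genes are shut off and light chain genes recombine. VPREB3 encodes a related protein, which in mouse was described as binding mu heavy chains inside the cell.

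The 5 droplet libraries (10x Genomics, 3' ends counted by unique molecular identifiers, UMIs) came from femoral marrow of 3 healthy dogs labelled wild type. Unsorted whole marrow gave 3 libraries, called whole marrow 1, 2 and 3. Viable CD34+ cells sorted from marrows 2 and 3 gave 2 libraries, called CD34-sorted 1 and 2, each 1 sort from 1 dog. All suspensions had been treated to lyse red cells, and the sort means that CD34-sorted cells without a CD34 UMI had still passed a gate on CD34 protein.

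Of 27953 barcodes, 24708 had 200 genes or more and no more than 10% of UMIs from mitochondrial genes, and these were kept. Total UMIs per library ranged from 46114431 to 70169186. Kept cells were deeper in the sorted libraries, with medians of 11622 and 14623 UMIs, than in whole marrow, with medians of 2694 to 4344. Pairs of libraries shared 3 to 11 barcode sequences. Levels are UMIs per 1000000 UMIs of the selected cells (CPM) and shares are percent of cells with at least 1 UMI. Levels and shares are given without intervals, so their counting error is not shown. Intervals are given only with the test of sorted against whole-marrow libraries, and they include the spread between libraries.

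Cells were selected on raw UMIs of other genes. PAX5+ cells hold at least 1 UMI of PAX5, the transcription factor that commits cells to the B lineage, and were divided by CD34 (at least 1 UMI) and by MS4A1, which encodes CD20 of later B cells. PAX5+ CD34+ cells numbered 71, 22 and 24 in the whole marrows and, after sorting, 980 and 522. PAX5+ CD34- MS4A1- cells numbered 228, 122, 648, 707 and 726 in the same order. Cells with at least 2 MS4A1 UMIs numbered 48, 47 and 97 in whole marrow and 13 and 6 in the sorted libraries.

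The labels of these selections held against their markers in part. DNTT, which adds nucleotides at V(D)J joins, stood at 1147 to 1971 CPM in PAX5+ CD34+ cells of the 5 libraries. In PAX5+ CD34- MS4A1- cells it stood at 518, 132 and 89.9 CPM in whole marrows 1 to 3 but at 2631 and 1579 CPM in the sorted libraries. CD79A, listed as a B cell marker, ranged only from 3676 to 11437 CPM over all 37 sums of at least 20 cells, T and erythroid selections included, so it marked nothing in these files. The MS4A1 selection also held plasma cell genes, with JCHAIN (joining chain of secreted antibody) at 1310, 3191 and 2123 CPM in whole marrows 1 to 3.

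Other lineages were present in the whole-marrow selections. The 7 neutrophil markers summed to 21474, 11077 and 24032 CPM in PAX5+ CD34- MS4A1- cells of whole marrows 1 to 3, against 2.91 and 2.11 CPM in the sorted libraries, where 4 and 3 of the 7 were at 0. In PAX5+ CD34+ cells they summed to 4659, 487 and 10505 CPM in whole marrow and to 60.4 and 68.0 CPM in the sorted libraries. Barcodes that also passed a neutrophil, erythroid or T marker limit made up 18.8% to 20.5% of whole-marrow PAX5+ CD34- MS4A1- cells. They made up 9.09% to 37.5% of whole-marrow PAX5+ CD34+ cells and at most 0.575% of either sorted selection. Without these barcodes the mean whole-marrow level of VPREB3 in the MS4A1 selection was 333 CPM in place of 195 CPM, and levels of PAX5+ CD34- MS4A1- cells are given below.

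VPREB1 was high in every library in PAX5+ CD34+ cells. It stood at 5309, 3519 and 3228 CPM in whole marrows 1 to 3 and at 3754 and 4570 CPM in the sorted libraries, and 83.3% to 100% of cells held a UMI. The sorted and unsorted values overlapped. ENSCAFG00000014139 followed with 7421, 8568 and 5160 CPM in whole marrow and 6858 and 7143 CPM in the sorted libraries, in 91.7% to 100% of cells. VPREB3 stood at 74.1, 284 and 341 CPM in whole marrow and at 302 and 312 CPM in the sorted libraries, in 36.6% to 75% of cells. Whole marrow 1 was the low library for VPREB3 and for no other of the 3 genes.

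**Figure D1:**
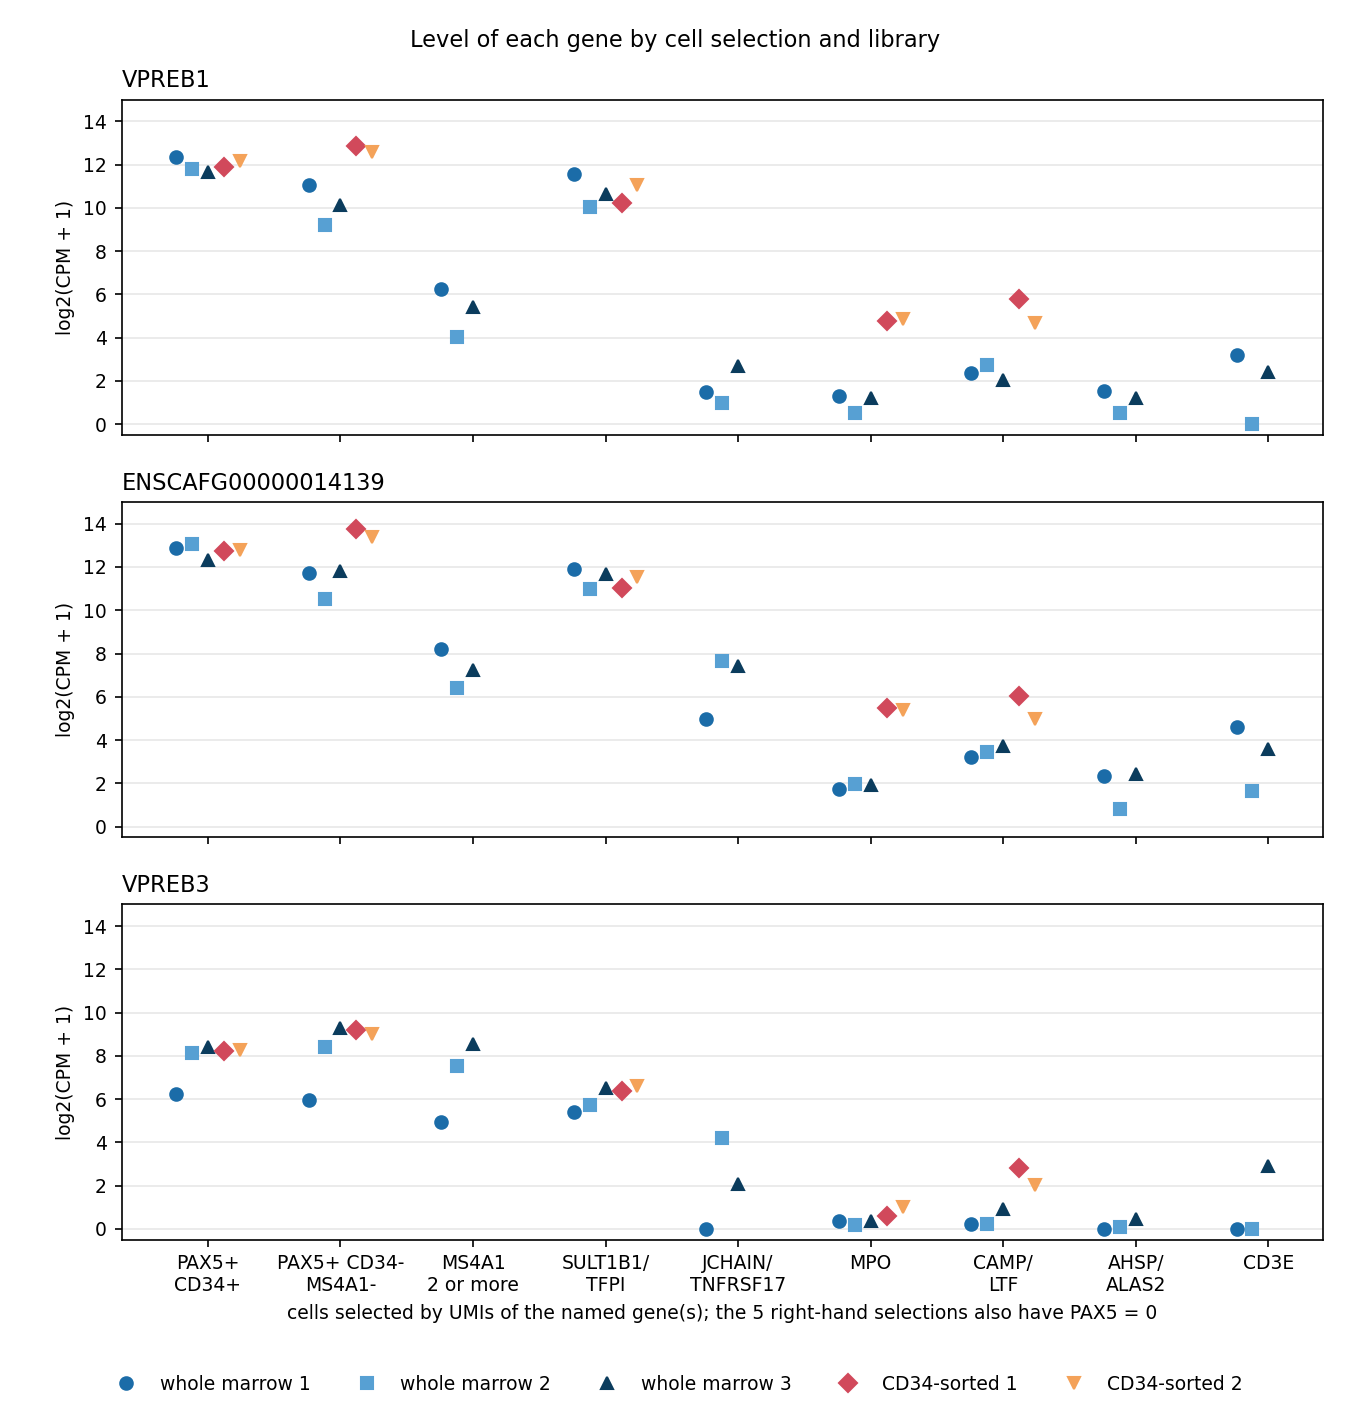
Each point is 1 library; the vertical axis is log2(CPM + 1) and the horizontal axis lists cell selections of at least 20 cells. VPREB1 and ENSCAFG00000014139 are high in PAX5+ cells and low in the MS4A1 selection. VPREB3 is there at 0.481, 0.546 and 0.605 times its PAX5+ CD34- MS4A1- level in whole marrows 1 to 3, in a selection that includes PAX5-negative cells. Its lowest value there is 29.6 CPM, in whole marrow 1.

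Among PAX5+ cells without CD34 or MS4A1, the groups separated. VPREB1 stood at 2141, 583 and 1117 CPM in whole marrows 1 to 3 and at 7359 and 6234 CPM in the sorted libraries. Each whole marrow was below its own PAX5+ CD34+ cells, at 0.403, 0.166 and 0.346 times their level, and each sorted library was above, at 1.96 and 1.36 times. ENSCAFG00000014139 showed the same split, with 3373, 1472 and 3611 CPM in whole marrow and 13803 and 10823 CPM in the sorted libraries. It stood at 0.454, 0.172 and 0.700 times the PAX5+ CD34+ level in whole marrow and at 2.01 and 1.52 times in the sorted libraries.

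VPREB3 did not split by group in the summed UMIs. It stood at 61.6, 336 and 616 CPM in PAX5+ CD34- MS4A1- cells of whole marrows 1 to 3 and at 578 and 508 CPM in the sorted libraries. Relative to PAX5+ CD34+ cells that was 0.831, 1.18 and 1.81 times in whole marrow and 1.92 and 1.63 times in the sorted libraries. Some scales that weight cells equally changed this. The mean of CPM over cells gave 2.41, 5.20 and 3.27 times in whole marrow against 1.32 at most in the sorted libraries. Cells thinned to 1000 UMIs gave 3.15, 4.88 and 7.02 against 1.31 and 1.38. On those scales every whole marrow was above both sorted libraries. The whole-marrow divisors at 1000 UMIs were 43.5, 227 and 250 CPM in 69, 22 and 24 cells, so they rest on few UMIs. Thinning to 2000 UMIs gave 1.07, 1.62 and 3.65 against 1.38 and 1.26, with whole marrow 1 below both sorted libraries.

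The barcodes with other-lineage markers lowered the whole-marrow values. Without them VPREB1 was 4283, 1449 and 1869 CPM in PAX5+ CD34- MS4A1- cells of whole marrows 1 to 3, ENSCAFG00000014139 was 6901, 3905 and 6220 CPM, and VPREB3 was 142, 886 and 1228 CPM. Both whole marrows that kept 20 PAX5+ CD34+ cells stayed below them for VPREB1, at 0.681 and 0.406 times, and for ENSCAFG00000014139, at 0.781 and 0.460 times. With at least 2 PAX5 UMIs, whole marrow 3 turned above for ENSCAFG00000014139, at 1.19 times.

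In the MS4A1 selection 37.5%, 59.6% and 79.4% of cells of whole marrows 1 to 3 held a PAX5 UMI, and VPREB1 was low. In cells with at least 2 MS4A1 UMIs it stood at 76.2, 15.3 and 41.3 CPM in whole marrows 1 to 3, or 0.0356, 0.0262 and 0.0369 times the PAX5+ CD34- MS4A1- level. ENSCAFG00000014139 stood at 296, 82.9 and 152 CPM, or 0.0878, 0.0563 and 0.0420 times. In whole marrow 1 most UMIs of both genes came from 1 of the 48 barcodes. Without it 4 of 36 VPREB1 UMIs and 15 of 140 ENSCAFG00000014139 UMIs were left. VPREB3 stood at 29.6, 183 and 373 CPM, or 0.481, 0.546 and 0.605 times, a larger part of its level than the other 2 genes kept in each of the 3 marrows. Without barcodes holding other-lineage markers the VPREB3 part was 0.232, 0.282 and 0.582, and with cells thinned to 2000 UMIs it was 0.972, 1.29 and 0.993. VPREB3 UMIs were found in 18.8%, 51.1% and 73.2% of these cells.

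The selection that also requires PAX5 and no CD34 held fewer cells. In its 18, 28 and 76 cells of whole marrows 1 to 3, VPREB1 stood at 253, 31.8 and 77.0 CPM, ENSCAFG00000014139 at 956, 15.9 and 122 CPM, and VPREB3 at 79.6, 408 and 711 CPM. With PAX5 required, VPREB3 was thus not below its 61.6, 336 and 616 CPM in PAX5+ CD34- MS4A1- cells. Cells with exactly 1 MS4A1 UMI held VPREB1 at 975, 9.87 and 87.3 CPM and VPREB3 at 63.6, 316 and 1181 CPM. The VPREB1 UMIs of whole marrow 1 came from 2 cells in each of these groups, of 18 and 28. Without the barcode with the most VPREB1 UMIs, 7 of the 132 ENSCAFG00000014139 UMIs of those 18 cells were left.

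Across CD34 counts the sorted libraries ran in a single direction for VPREB1 and ENSCAFG00000014139 down to 1 CD34 UMI. In CD34-sorted 1, PAX5+ cells with at least 8, with 4 to 7, with 2 to 3, with 1 and with 0 CD34 UMIs held VPREB1 at 2286, 2873, 5387, 6910 and 7359 CPM. In CD34-sorted 2 the values were 1677, 2966, 5314, 6530 and 6234 CPM. ENSCAFG00000014139 went from 4068 to 13803 CPM and from 2747 to 10823 CPM over the same bins. VPREB3 stood at 129 and 61.6 CPM in cells with at least 8 CD34 UMIs and at 578 and 508 CPM in cells with none.

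Depth and cycling moved with these bins. Cells with at least 2 UMIs of MKI67 and TOP2A made up 43.5% and 60.0% of sorted PAX5+ CD34+ cells and 25.5% and 57.6% of sorted PAX5+ CD34- MS4A1- cells. Median depth was 7661 and 9214 UMIs in sorted PAX5+ CD34+ cells and 2535 and 6472 UMIs in sorted PAX5+ CD34- MS4A1- cells. With every cell thinned to 2000 UMIs, the ratio of PAX5+ CD34- MS4A1- to PAX5+ CD34+ cells was 1.44 and 1.20 for VPREB1 in the sorted libraries. This left out 144 and 15 PAX5+ CD34+ cells and 227 and 38 PAX5+ CD34- MS4A1- cells that were shallower. In thinned whole marrow the ratio was 0.589, 0.214 and 0.285, so the groups still lay on opposite sides of 1. The part of depth and of cycling in the order of the bins was not tested.

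**Figure D2:**
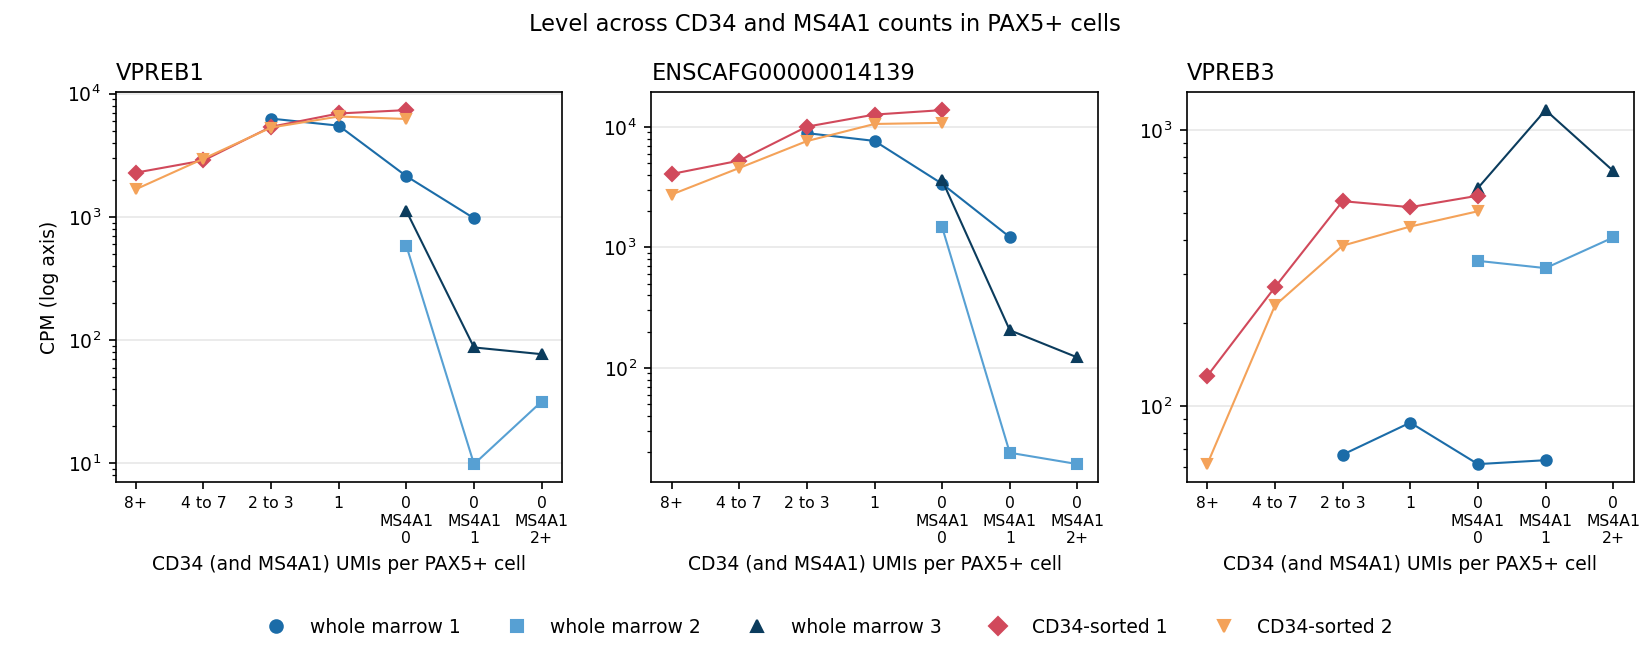
Each line joins the bins of 1 library that hold at least 20 PAX5+ cells; the vertical axis is CPM on a log axis and the horizontal axis bins cells by CD34 UMIs, then by MS4A1 UMIs. In the sorted libraries VPREB1 is lowest at 8 or more CD34 UMIs (2286 and 1677 CPM), and in whole marrows 2 and 3 VPREB1 drops with the first MS4A1 UMI while VPREB3 goes from 336 to 316 CPM and from 616 to 1181 CPM.

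Within the CD34- MS4A1- cells of whole marrow, summed VPREB1 and ENSCAFG00000014139 levels were higher where members of the recombination machinery were detected. RAG1, the catalytic part of the V(D)J recombinase, had at least 1 UMI in 67, 36 and 189 of these cells. In RAG1+ cells VPREB1 stood at 4572, 2994 and 1920 CPM in whole marrows 1 to 3, against 1831, 352 and 1019 CPM where no RAG1 UMI was counted. High and low cells were not separated, since 76 of 161, 25 of 86 and 280 of 459 cells without RAG1 held VPREB1. The highest VPREB1 count of a barcode was 183, 58 and 186 UMIs without RAG1 and 61, 33 and 114 with it. The part of depth, cycling and other-lineage barcodes was not tested. ENSCAFG00000014139 stood at 8356, 8541 and 7584 CPM against 2738, 797 and 3126 CPM. VPREB3 stood at 160, 1577 and 1160 CPM against 49.0, 217 and 550 CPM, although as a mean of CPM over cells it was lower in RAG1+ cells of whole marrow 3, at 1639 against 1896. In the sorted libraries VPREB3 was instead lower in RAG1+ cells, 430 and 376 CPM against 621 and 523 CPM.

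Whole-marrow cells with a DNTT UMI held more VPREB1. In the 77, 13 and 77 whole-marrow CD34- MS4A1- cells with a DNTT UMI, VPREB1 stood at 5449, 6831 and 2704 CPM, and in the cells without at 391, 283 and 559 CPM. VPREB3 stood at 77.4, 561 and 594 CPM with DNTT and at 53.2, 325 and 624 CPM without. As a mean of CPM over cells VPREB3 was instead lower with DNTT in all 3 marrows, at 83.6, 743 and 1005 against 231, 1536 and 1931. In sorted libraries 694 of 707 and 689 of 726 of these cells held a DNTT UMI.

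The 3 genes were then read against each other in the same cells. UMIs from 3' ends are not scaled by length or capture, so a ratio between genes is compared only between selections. ENSCAFG00000014139 gave 1.40, 2.44 and 1.60 UMIs per VPREB1 UMI in PAX5+ CD34+ cells of whole marrows 1 to 3, while the sorted libraries gave 1.83 and 1.56. In PAX5+ CD34- MS4A1- cells the ratio was 1.58, 2.53, 3.23, 1.88 and 1.74 in the same order, above the CD34+ value in all 5 libraries. Split by MKI67 and TOP2A UMIs (at least 2, or 0), it was instead below in cycling cells of CD34-sorted 1, at 1.70 against 1.77. It was also below in non-cycling cells of whole marrow 2, at 2.58 against 3, the latter in 7 cells. The other splits stayed above. In the MS4A1 selection it was 3.89, 5.43 and 3.68 in whole marrow. Where PAX5 and no CD34 were also required it was 3.77, 0.5 and 1.59, on 35, 6 and 29 VPREB1 UMIs, below the PAX5+ CD34- MS4A1- values of whole marrows 2 and 3.

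VPREB3 per VPREB1 spread much further. It was 0.0140, 0.0806 and 0.106 in PAX5+ CD34+ cells of whole marrows 1 to 3, then 0.0288, 0.576 and 0.552 in PAX5+ CD34- MS4A1- cells and 0.389, 12 and 9.03 in the MS4A1 selection. In whole marrow 1 a single barcode held 32 of the 36 VPREB1 UMIs of the MS4A1 selection, and without it the ratio was 3.50. In the sorted libraries it was 0.0804 and 0.0683 in PAX5+ CD34+ cells and 0.0786 and 0.0815 in PAX5+ CD34- MS4A1- cells.

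**Figure D3:**
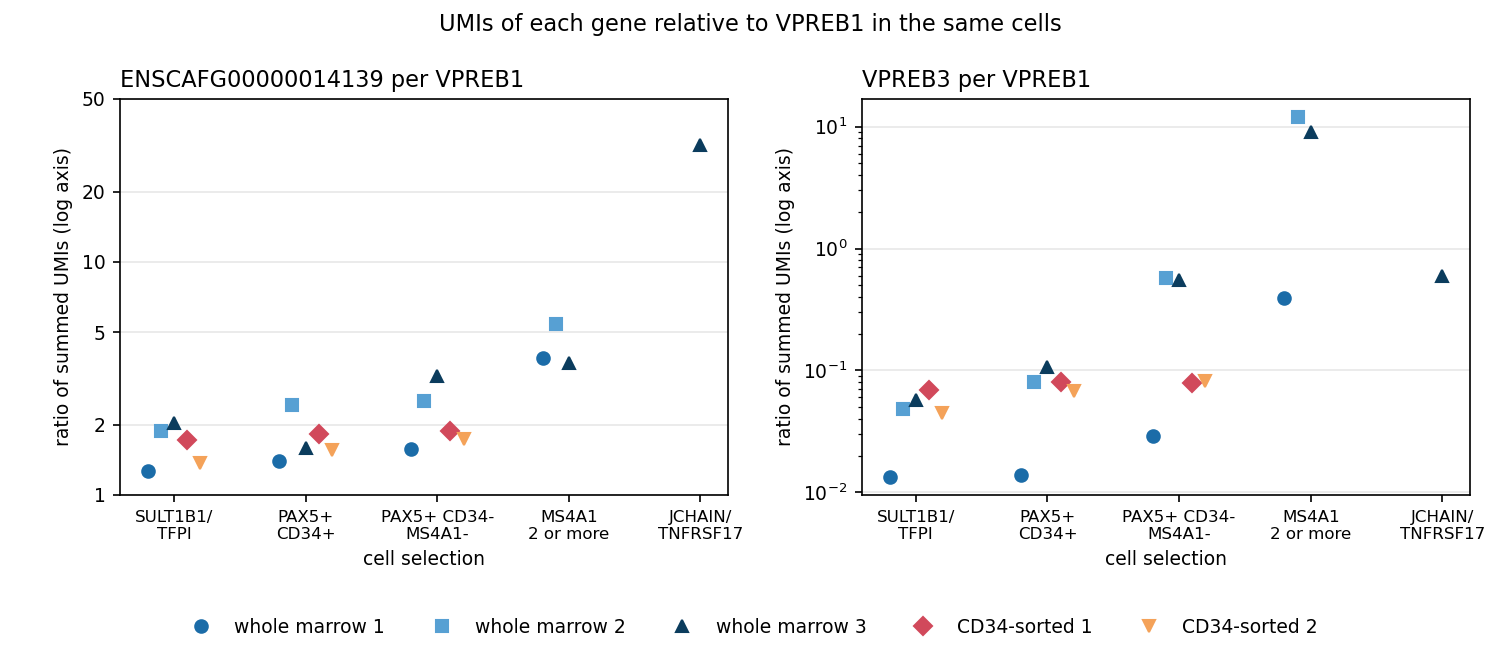
Each point is 1 library; the vertical axes are ratios of summed UMIs on log axes, ENSCAFG00000014139 to VPREB1 on the left and VPREB3 to VPREB1 on the right, and ratios resting on 3 or fewer VPREB1 UMIs are left out. Both ratios are higher in the MS4A1 selection, which includes PAX5-negative cells, than in PAX5+ cells of the same whole marrow; among PAX5+ MS4A1+ cells the left-hand ratio is 0.5 and 1.59 in whole marrows 2 and 3.

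VPREB1 and ENSCAFG00000014139 were both found in 100%, 95.5% and 83.3% of PAX5+ CD34+ cells of whole marrows 1 to 3 and in 94.0% and 90.6% of those in the sorted libraries. All 3 genes were found in 36.6%, 63.6% and 62.5% of these cells in whole marrow and in 57.9% and 63.8% in the sorted libraries. In PAX5+ CD34- MS4A1- cells of whole marrow 3, 16.5% held ENSCAFG00000014139 without VPREB1 and 2.16% held VPREB1 without ENSCAFG00000014139. In whole marrows 1 and 2 the shares were 9.65% and 7.38% against 0.877% and 1.64%. Such cells were rare in the sorted libraries, at 0.141% against 0% of 707 cells in CD34-sorted 1 and 0.275% against 0.689% of 726 cells in CD34-sorted 2. Both genes were found together in 58.3%, 42.6% and 65.0% of these whole-marrow cells, where the product of their shares was 40.3%, 22.1% and 54.7%. VPREB3 alone was found in 12.5%, 29.8% and 33.0% of the MS4A1 selection in whole marrows 1 to 3.

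Shares move with depth. At 2000 UMIs per cell all 3 genes were found in 13.3%, 23.8% and 27.3% of whole-marrow PAX5+ CD34+ cells and in 42.0% and 41.6% of sorted ones. At this depth, 11 whole-marrow cells in the first library and between 1 and 2 in the others were too shallow to enter. VPREB3 alone remained in 11.1%, 20.6% and 36.2% of the whole-marrow MS4A1 selection.

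**Figure D4:**
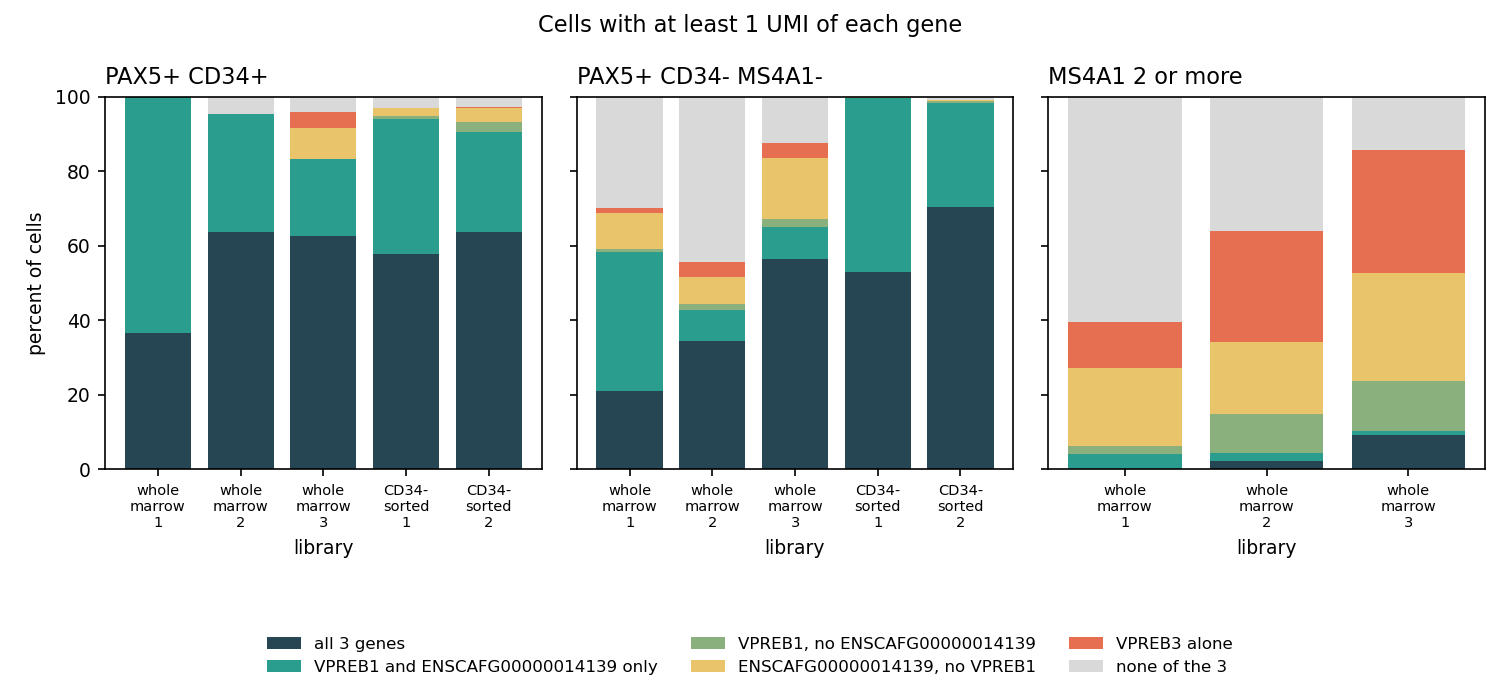
Stacked bars give the percent of cells of each library (at least 20 cells) by which of the 3 genes had a UMI; bars for 1 of VPREB1 and ENSCAFG00000014139 without the other include cells with or without VPREB3. Cells with all 3 genes make up 36.6% to 63.8% of PAX5+ CD34+ cells and 0% to 9.28% of the MS4A1 selection.

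Whole marrow 1 was low in VPREB3 in each of these selections. In PAX5+ CD34+ cells its 74.1 CPM compares with 284 to 341 CPM in the other 4 libraries, which come from 2 dogs. In PAX5+ CD34- MS4A1- cells 61.6 CPM compares with 336 to 616 CPM, and in the MS4A1 selection 29.6 CPM compares with 183 and 373 CPM. Of 2346, 2437 and 1866 features at 50 CPM or more, 26, 5 and 26 had a lower ratio of whole marrow 1 to the other libraries in the 3 selections. Whole marrow 1 came from a dog with no sorted library, so the dog and the library cannot be told apart.

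IGHM, which encodes the mu heavy chain and was looked up after these values were seen, was low in the same library. It stood at 67.5, 535 and 604 CPM in PAX5+ CD34+ cells of whole marrows 1 to 3 and at 346 and 341 CPM in the sorted libraries. In PAX5+ CD34- MS4A1- cells it stood at 112, 612 and 859 CPM in whole marrow and at 526 and 518 CPM in the sorted libraries. PAX5 itself was at 464 CPM in PAX5+ CD34+ cells of whole marrow 1, inside the range of 262 to 731 CPM of the others.

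A selection on SULT1B1, a sulfotransferase, and TFPI, a coagulation inhibitor (at least 4 UMIs together), was meant to hold stem and progenitor cells and held 62, 29 and 44 cells in whole marrow and 1534 and 1675 in the sorted libraries. VPREB1 stood there at 3058, 1062 and 1591 CPM in whole marrows 1 to 3 and at 1189 and 2134 CPM in the sorted libraries. Of these cells 18.2% to 40.3% were also PAX5+ CD34+. With PAX5, VPREB1 stood at 5565, 3890 and 6552 CPM in whole marrow and at 4248 and 6776 CPM in the sorted libraries. Without a PAX5 UMI it stood at 406, 331 and 98.4 CPM and at 281 and 502 CPM.

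Most PAX5-negative cells of that selection held DNTT. Those with neither gene numbered 1, 4 and 1 in whole marrow, with no VPREB1 UMI, and 64 and 34 in the sorted libraries, where VPREB1 stood at 10.9 and 32.8 CPM and ENSCAFG00000014139 at 39.8 and 41.1 CPM.

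The selection for IRF8 and TCF4, factors of plasmacytoid dendritic cells (at least 5 UMIs each, no PAX5), held only 2, 5, 4, 6 and 3 cells. No whole-marrow cell among them held VPREB1 or VPREB3, and so few cells set no useful limit. In CD34-sorted 1, the 6 cells held 3 VPREB1 UMIs, 1 VPREB3 UMI and 17 ENSCAFG00000014139 UMIs. In CD34-sorted 2 the 3 cells held no UMI of the 3 genes.

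Cells selected on markers of other lineages were taken as the background. In MPO, neutrophil, erythroid and T selections of whole marrow (no PAX5, 12 sums), VPREB1 ranged from 0 to 8.18 CPM, VPREB3 from 0 to 6.60 CPM and ENSCAFG00000014139 from 0.748 to 23.2 CPM. In sorted MPO+ cells VPREB1 stood at 25.9 and 28.1 CPM and ENSCAFG00000014139 at 43.6 and 40.8 CPM. In the 21 and 34 sorted neutrophil-marker cells VPREB1 stood at 54.8 and 24.5 CPM and ENSCAFG00000014139 at 64.0 and 30.7 CPM. At median depths of 26016 and 29457 UMIs this gave a VPREB1 UMI in 40.7% and 46.1% of sorted MPO+ cells, and in 4.94% and 5.08% at 2000 UMIs, with 10% and 9.68% in the sorted neutrophil-marker cells. PAX5-negative SULT1B1/TFPI cells of the sorted libraries, at median depths of 13610 and 15251 UMIs, had a VPREB1 UMI in 40.6% and 49.8% of cells, a share close to that of the deeper MPO+ cells. At 2000 UMIs the shares were 16.7% and 22.7%, above the MPO+ and neutrophil-marker shares, as were the levels of 281 and 502 CPM. The sorted background cells are not known to lack early lymphoid transcripts. DNTT had a UMI in 84.2% and 84.0% of sorted MPO+ cells and in 71.4% and 67.6% of sorted neutrophil-marker cells.

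Plasma cells stood apart from that background for ENSCAFG00000014139. In cells with JCHAIN and TNFRSF17, the plasma cell survival receptor, and no PAX5 (95, 57 and 35 cells of whole marrows 1 to 3), it stood at 30.4, 199 and 172 CPM, in 32.6%, 59.6% and 71.4% of cells. The summed UMIs were 51, 208 and 158 for ENSCAFG00000014139 and 3, 1 and 5 for VPREB1. The ratio of 31.6 in whole marrow 3, the library with more than 3 VPREB1 UMIs, compares with 3.23 in all PAX5+ CD34- MS4A1- cells of that library and with 4.51 in the non-cycling ones. Barcodes that also passed a neutrophil, erythroid or T marker limit made up 18.9%, 14.0% and 71.4% of the plasma selection in whole marrows 1 to 3. Their part in this ratio and in the shares was not tested. VPREB3 gave 0, 18 and 3 UMIs. At 2000 UMIs per cell ENSCAFG00000014139 was found in 10%, 35.1% and 34.3% of the plasma selection, above the 4.94% at most of the other whole-marrow background selections. The sorted background selections ranged from 30.7 to 64.0 CPM and, at 2000 UMIs, from 6.26% to 15% of cells. Whole marrow 1 was thus not above them, at 30.4 CPM and 10%.

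The features most like each gene were ranked by Pearson's r of log2(CPM + 10) over 18 sums of library and selection, among 8623 features with at least 200 UMIs. The sums share libraries and some share cells, so r is a description. VPREB1 and ENSCAFG00000014139 were each other's first match (r = 0.99). Next for VPREB1 came CCDC167 (0.98), CA9, a carbonic anhydrase (0.97), SNRPD1, a core spliceosomal protein (0.97), and DPEP1, a membrane dipeptidase (0.96). For ENSCAFG00000014139 they were CCDC167 (0.98), DHDDS (0.97), CA9 (0.97) and KHDRBS1 (0.95). VPREB3 matched other features, C5H16orf74 (0.95), ENSCAFG00000002903 (0.94), PYGM (0.93), ID3, an inhibitor of E proteins (0.90), and H2BC20 (0.89). Its r was 0.16 with VPREB1 and 0.24 with ENSCAFG00000014139. PYGM, ID3 and H2BC20 were at 4.94 CPM or less in every sum of whole marrow 1, the library low in VPREB3. PYGM reached 17.3 CPM and H2BC20 16.4 CPM at most in any sum, near the 10 CPM added before the log. The part of that library in r was not tested.

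Sorted and whole-marrow libraries were compared within PAX5+ CD34+ cells by edgeR's quasi-likelihood test on summed UMIs, with Benjamini-Hochberg adjustment over 5184 genes. None of the 3 genes passed. VPREB1 differed by 0.12 ± 0.19 on the log2 scale (SE, sorted minus whole marrow, 95% interval -0.30 to 0.55, edgeR adjusted p = 0.963). ENSCAFG00000014139 differed by 0.06 ± 0.17 (95% interval -0.33 to 0.45, edgeR adjusted p = 0.983). VPREB3 differed by 0.45 ± 0.64 (95% interval -1.17 to 2.08, edgeR adjusted p = 0.960), and by 0.01 without whole marrow 1.

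Of all genes, 0% were higher and 0.0386% lower in sorted cells, 2 genes named here after their values were seen. LGALS3 (galectin-3) was at 2.65 to 4.22 CPM in sorted against 82.3 to 120 CPM in unsorted cells (log2 difference -4.76 ± 0.35, edgeR adjusted p = 0.00312), and S100P at 0.623 to 1.19 against 156 to 369 CPM (-7.92 ± 0.61, edgeR adjusted p = 0.00662). The neutrophil markers given above moved the same way, and their part was not tested. No gene of the 6 lists passed in either direction: 0 of 14 tested for pre-B receptor signalling, 0 of 10 for V(D)J recombination, 0 of 15 for B-lineage regulators, 0 of 7 for cytokines and survival, 0 of 7 for later B cells and 0 of 26 for cell cycle. At an unadjusted p under 0.05 there were 327 genes, and DESeq2 called 77. With the marrow number as a block 116 genes passed, none of them 1 of the 3.

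PAX5+ CD34+ cells were compared with PAX5+ CD34- MS4A1- cells of the same library for the pathway lists only, because the 3 genes were chosen on this contrast. Of 7368 genes, 0.0679% were higher in CD34+ cells and 0% lower. The 5 genes, named after their values were seen, were TNFSF13B, the B cell survival factor BAFF (log2 difference 2.11 ± 0.24), CD2, an adhesion receptor (1.82 ± 0.26), RRAGD, a GTPase of amino acid sensing (1.10 ± 0.16), PIK3R1, the regulatory subunit of PI3 kinase (1.05 ± 0.15), and HSP90AB1, a chaperone (0.58 ± 0.08), with edgeR adjusted p of 0.0205 to 0.0492. No list member passed, of 16 tested for pre-B receptor signalling, 10 for V(D)J recombination, 16 for B-lineage regulators, 10 for cytokines and survival, 11 for later B cells and 27 for cell cycle. At an unadjusted p under 0.05 there were 602 genes, DESeq2 called 66, and whole marrow alone gave 300. DNTT, of the recombination list, went from 1971, 1358 and 1147 CPM in CD34+ cells to 518, 132 and 89.9 CPM in CD34- MS4A1- cells of whole marrows 1 to 3. In the sorted libraries it went the other way, from 1489 and 1429 to 2631 and 1579 CPM. A single difference over all libraries cannot show such opposite changes, and the lists were not counted in whole marrow alone.

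Cycling cells, with at least 2 UMIs of MKI67 and TOP2A together, were compared with cells holding none, within each selection and with the library as a block. This contrast was not used to choose the 3 genes. Cycling cells made up 42.3% to 60.0% of PAX5+ CD34+ cells and 20.5% to 57.6% of PAX5+ CD34- MS4A1- cells. They were deeper, with medians of 10088, 11450 and 13022.5 UMIs against 2247 to 3950 UMIs in PAX5+ CD34+ cells of the 3 libraries compared.

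In PAX5+ CD34+ cells, where 3 libraries held at least 20 cells of both kinds, none of the 3 genes passed. VPREB1 stood at 8816 CPM in non-cycling and 4462 CPM in cycling cells of whole marrow 1, at 4195 and 3700 CPM in CD34-sorted 1, and at 3458 and 5122 CPM in CD34-sorted 2. The libraries disagreed in direction, and the log2 difference was -0.20 ± 0.22 (edgeR adjusted p = 0.629). ENSCAFG00000014139 stood at 13238 and 5895, 8046 and 6566, and 6183 and 7794 CPM (-0.38 ± 0.21, edgeR adjusted p = 0.289). Without CD34-sorted 2 VPREB1 was called at -0.55 (edgeR adjusted p = 0.0386) and ENSCAFG00000014139 at -0.70 (edgeR adjusted p = 0.00189). VPREB3 stood at 68.2 and 73.2, 232 and 341, and 265 and 349 CPM, higher in cycling cells of all 3 libraries (0.39 ± 0.16, edgeR adjusted p = 0.0910). Without whole marrow 1 the VPREB3 difference was 0.42 with an adjusted p of 0.00227 in edgeR.

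Other genes moved in that comparison, of which 1620 passed without whole marrow 1, 343 without CD34-sorted 1 and 491 without CD34-sorted 2. Of 7341 genes, 9.06% were higher and 5.97% lower in cycling cells. For pre-B receptor signalling 5 of 17 fell and none rose, among them SYK, the kinase that carries the receptor's signal (fell by 0.59 on the log2 scale, edgeR adjusted p = 0.0129), BTK (by 0.54), PIK3CD (by 0.66) and PTPN6, a phosphatase (by 0.44). For V(D)J recombination RAG1 fell by 2.22 and RAG2 by 1.18 while HMGB1, a chromatin protein also used in proliferation, rose by 1.76. Of 16 B-lineage regulators 7 fell and 1 rose, with FOXO1, which drives RAG expression in mouse, falling by 0.81 and BACH2 by 0.89. Of 9 later B cell genes 7 fell, CD74 by 2.08, and of 27 cell cycle genes 20 rose and 1 fell, NUSAP1 rising by 7.57. Of 10 cytokine and survival genes IL2RG fell by 1.02 and KIT by 0.69.

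In PAX5+ CD34- MS4A1- cells all 5 libraries entered, which come from 3 dogs. VPREB1 stood at 4309 and 1504 CPM in non-cycling and cycling cells of whole marrow 1, at 1384 and 318 CPM in whole marrow 2, at 1035 and 1186 CPM in whole marrow 3, at 8574 and 6444 CPM in CD34-sorted 1 and at 8627 and 5858 CPM in CD34-sorted 2. It was lower in cycling cells of 4 of 5 libraries, with a log2 difference of -0.70 ± 0.28 that missed the threshold (edgeR adjusted p = 0.0717). ENSCAFG00000014139 stood at 7194 and 2236, 3569 and 790, 4668 and 3358, 17196 and 10966, and 15514 and 10009 CPM. It was lower in cycling cells of 5 of 5 libraries, falling by 0.94 ± 0.23 (edgeR adjusted p = 0.00826). The background of lower genes was 18.6%, and 18.8% were higher, of 6176 tested.

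That call depended on which cells entered. The ENSCAFG00000014139 difference was -0.40 (edgeR adjusted p = 0.0752) without the barcodes that hold other-lineage markers, and -0.46 (edgeR adjusted p = 0.245) with cells thinned to 2000 UMIs. It was -0.48 (edgeR adjusted p = 0.0940) with at least 2 PAX5 UMIs and -0.75 (edgeR adjusted p = 0.483) without the library block. VPREB3 stood at 139 and 35.5, 1026 and 134, 1448 and 303, 485 and 655, and 536 and 507 CPM. It was lower in cycling cells of all 3 whole marrows and, by less, of CD34-sorted 2, but higher in CD34-sorted 1 (-1.15 ± 0.50, edgeR adjusted p = 0.116). Without CD34-sorted 1 the VPREB3 difference was -1.66 (edgeR adjusted p = 0.0412), and without whole marrow 3 that of VPREB1 was -1.03 (edgeR adjusted p = 0.0137). The difference between whole-marrow and sorted libraries was not tested.

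**Figure D5:**
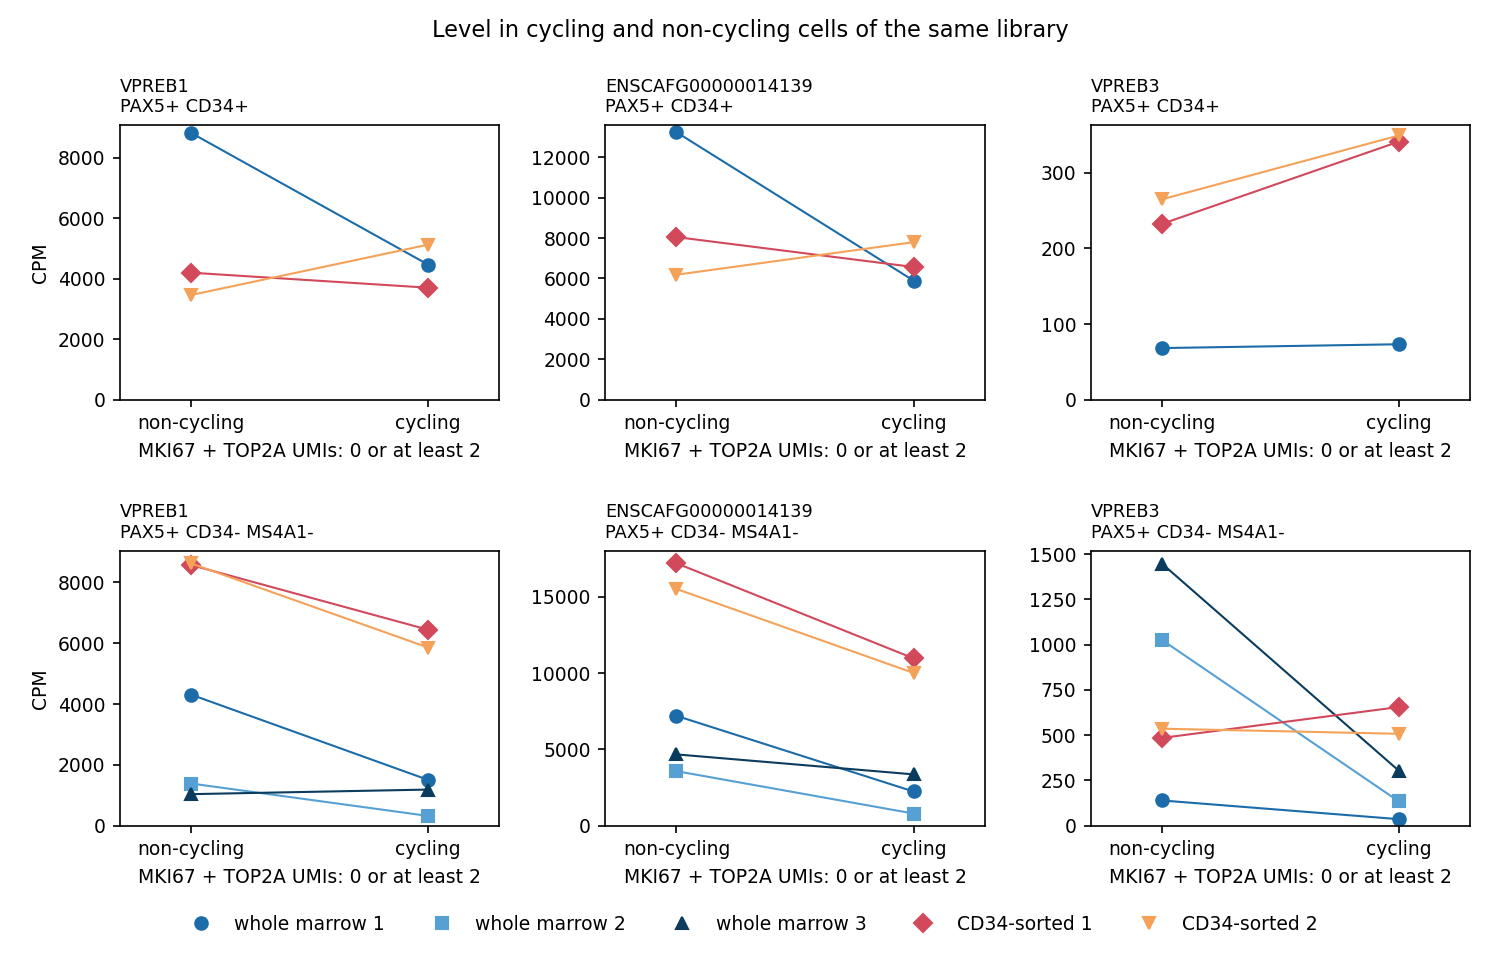
Lines join non-cycling and cycling cells of the same library (at least 20 cells of each kind); the vertical axes are CPM from 0, with PAX5+ CD34+ cells above and PAX5+ CD34- MS4A1- cells below. ENSCAFG00000014139 is lower in cycling CD34- cells of 5 of 5 libraries, and VPREB3 is lower there in 4 of 5, with CD34-sorted 1 higher (485 and 655 CPM).

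For pre-B receptor signalling 12 of 14 fell and none rose (median log2 difference -1.28, against -0.02 over all genes, of which 18.6% were lower), with SYK falling by 1.60, PIK3AP1 by 1.55, BCL10 by 1.53 and CD22, an inhibitory receptor, by 1.52. RAG1 fell by 4.20, RAG2 by 2.50 and LIG4, the ligase that seals V(D)J joins, by 1.24, while HMGB1 rose by 1.83, out of 10 recombination genes. Of 15 B-lineage regulators 11 fell, FOXO1 by 2.12, BACH2 by 2.04, TCF4 by 1.39 and EBF1 by 1.35. Of 8 later B cell genes 7 fell, LTB by 5.08 and CD74 by 2.81, of 8 cytokine and survival genes 3 fell, IL2RG by 1.29, JAK1 by 1.00 and MCL1 by 0.89, and of 25 cell cycle genes 23 rose. Barcodes with other-lineage markers were unevenly divided here, making up 41.5%, 48% and 41.8% of cycling cells of whole marrows 1 to 3 against at most 13.0% of non-cycling ones, and their part in the list counts was not tested.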

How the data were processed

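UMI counts per gene and barcode were deposited by the authors for 5 libraries. The count files carry Cell Ranger 7.0.1 in their headers, whereas version 7.1.0 and the build CanFam 3.1 are named by the submitters' processing notes. No normalization had been applied. Barcodes with at least 200 genes and at most 10% of UMIs from 13 mitochondrial features were kept, and no doublet caller was run. The 3 genes, the gene lists and the selections were chosen with earlier results of these data known.

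UMIs were summed per library and selection and tested with edgeR 4.0.16 (quasi-likelihood, TMM scaling, Benjamini-Hochberg threshold 0.05, R 4.3.3), with DESeq2 1.42.0 as an alternative. Sums of at least 20 cells entered. The 3 genes were tested between sorted and whole-marrow libraries and between cycling and non-cycling cells, and not between the selections they were chosen on. Comparisons within libraries used the library as a block, since both sums come from the same marrow. Sorted libraries were tied to marrows 2 and 3 by the shared leading digits of the library names, and this pairing was used only as an alternative. Every library is 1 dog's marrow or 1 sort of it. In comparisons within libraries, p-values measure how far the difference within a library varies from library to library. In the comparison of sorted with whole-marrow libraries they measure the spread between libraries. The libraries are treated as independent in both kinds of comparison, although the sorted ones share marrows 2 and 3 with whole-marrow ones. Genes were named as the members of fixed lists with the largest changes past the threshold, 4 at most per list and comparison. On simulated counts for the comparison of sorted with whole-marrow libraries, over 5020 genes, 97% of 4-fold and 39% of 2-fold changes were recovered. In the other comparisons 86% to 97% of 4-fold and 25% to 70% of 2-fold changes were recovered. The 25% was for cycling PAX5+ CD34+ cells. The simulated counts had the same dispersion for every gene and no differences between dogs, unlike the data.

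RefSeq names matched VPREB3 by symbol and the other 2 genes not at all, and no sequence or coordinate is given. 3' UMIs of overlapping or near-identical genes can be split by the counting, and ENSCAFG00000014139 carries that uncertainty.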

Additional observations from a re-analysis of the deposited data

Results flagged for a closer look

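The ratio of PAX5+ CD34- MS4A1- to PAX5+ CD34+ levels lay on opposite sides of 1 in the 2 groups for VPREB1 and ENSCAFG00000014139, with every library of a group on the same side. The mean log2 ratio of VPREB1 was 0.71 in sorted libraries and -1.81 in whole marrow, a difference of 2.52. That of ENSCAFG00000014139 was 0.80 and -1.40, a difference of 2.20. The difference was not tested. It was 1.64 and 1.54 without barcodes that hold other-lineage markers, where 2 whole marrows kept enough cells. With at least 2 PAX5 UMIs, again with 2 whole marrows, it was 1.07 and 0.58, the whole-marrow mean of ENSCAFG00000014139 was -0.06, and whole marrow 3 lay above 1 for that gene at 1.19 times, so its groups no longer lay on opposite sides of 1.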

How the results depend on the processing

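Counts of genes past the threshold depended on the fit. For sorted against whole-marrow PAX5+ CD34+ cells the count of 2 became 77 with DESeq2, 167 with no low-count filter, 116 with the marrow number as a block, 7 without other-lineage barcodes and 20 with at least 2 PAX5 UMIs. Leaving out 1 library gave 2 to 11: 4, 6 and 11 without whole marrows 1, 2 and 3, and 6 without CD34-sorted 2. With the block VPREB3 was -0.0126 (edgeR adjusted p = 0.998). Without other-lineage barcodes VPREB1 was -0.0865 and ENSCAFG00000014139 was -0.16, and leaving out 1 library moved ENSCAFG00000014139 from -0.0630 to 0.233; none of these passed.

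For PAX5+ CD34+ against CD34- MS4A1- cells the count of 5 became 66 with DESeq2, 101 with no low-count filter, 0 with no replicate block, 26 without other-lineage barcodes, 27 with at least 2 PAX5 UMIs and 300 in whole marrow alone. Leaving out 1 library gave 1 to 10: 8, 10 and 2 without whole marrows 1, 2 and 3, and 1 without either sorted library.

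For cycling PAX5+ CD34+ cells the count was 426 with DESeq2, 274 with no replicate block and 343 to 1620 with 1 library left out. VPREB1 ranged from -0.55 to 0.13, VPREB3 from 0.28 to 0.45 and ENSCAFG00000014139 from -0.698 to -0.0377 with 1 library left out. VPREB3 passed at 0.42 without other-lineage barcodes and at 0.46 with a cycling limit of 4 UMIs, and ENSCAFG00000014139 at -0.50 with at least 2 PAX5 UMIs. For cycling PAX5+ CD34- MS4A1- cells the count was 1494 with no replicate block and 1197 after thinning. VPREB3 passed at -1.14 with DESeq2 and at -1.03 with no low-count filter, as did VPREB1 at -0.59. With 1 library left out VPREB1 ranged from -1.03 to -0.47 and VPREB3 from -1.66 to -0.79. ENSCAFG00000014139 missed the threshold at -0.75 with no replicate block, -0.40 without other-lineage barcodes, -0.48 with at least 2 PAX5 UMIs and -0.46 after thinning. The causes were not tested. Few whole-marrow PAX5+ CD34+ cells, 22 to 71, limit each value from them.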
